A study of Zea mays with 12 samples.

Results

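The response of wild-type maize leaves to 1 h of blue light was described by setting the 3 leaf libraries of B73 seedlings given blue light against the 3 libraries of B73 seedlings kept in the dark. These 6 libraries are chosen by their labels, out of 12 in the series. B73 is the maize inbred line that serves as the reference line of the species, and it is labelled wild type here. Per the labels, seedlings were 7 days old, grown in white light with long days, and spent 48 h in the dark. They then received blue light for 1 h or stayed in the dark, so both B73 groups carry the same dark pretreatment. The other 6 libraries come from the mutant stock zmcryq, 3 after 1 h of blue light and 3 kept dark. In plants "cry" is the usual short name of the cryptochromes, but the labels do not list the alleles of this stock. Whether the 3 libraries of a group are separate plants is not said in the labels, so p-values reflect how far these libraries differ among themselves, and that spread may be technical.

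Plants sense blue light mainly through cryptochromes and phototropins. Light-activated cryptochromes change the activity of transcription regulators and of the machinery that degrades them, so that gene expression can change within the first hour. After long darkness, leaves are low in transcripts that light induces and high in transcripts of the dark state, and a return to light is known to move both sets. In bulk leaf tissue, fewer cells of a type and less RNA per cell cannot be told apart.

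The table gives 44303 gene IDs, of which 11237 were listed at 0 in all 12 libraries. It pairs no ID with a name, and 0 of the IDs matched the RefSeq table of maize genes. Genes are therefore described by groups, and a few are given by ID, with no name or role. For the same reason the gene lists for photoreceptors, light signalling, the clock, photosynthesis, pigments and leaf cell types could not be read, the leaf label could not be set against leaf markers, and the mutated genes could not be looked up. No sequence is shown, because none can be tied to an ID. Values were read as FPKM, fragments normalised to transcript length and to the mapped total of the library, and each library was divided by its median-ratio factor (its median ratio to the geometric mean of all libraries). The result is called scaled FPKM. This scaling sets the median change near 0, so it would take out any shift common to most genes.

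Before the results, 2 of the 6 B73 libraries need a remark. Blue replicate 2 had a factor of 0.567, against 1.45 and 1.49 in the other blue libraries and 0.993 to 1.16 in the dark libraries. The 20 most abundant genes of the series took 34.6% of its total, against 12% and 10.1% in blue replicates 1 and 3 and 18.7% to 22.7% in the dark libraries. After scaling it lay close to its group: 588 genes (2.74% of those tested) were at least 2-fold from the mean of the other blue libraries, against 489 and 510 for blue replicates 1 and 3. Dark replicate 3 stood further from its group, with 1284 such genes (5.98%), against 405 and 490 for dark replicates 1 and 2. Across genes, Pearson's r was 0.95 to 0.984 between B73 libraries of the same light, over 6 pairs, and 0.84 to 0.866 between blue and dark libraries, over 9 pairs.

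One hour of blue light was accompanied by a change in about every other gene measured in B73 leaves, mostly a small one. Of the 21472 genes tested, which reached 1 FPKM in 3 or more of the 12 libraries, 5774 were higher (26.9%) and 5416 lower (25.2%) in blue light than in the dark. Together these are 52.1% of the genes tested (limma, Benjamini-Hochberg adjusted p under 0.05, 2-sided). A change of less than 2-fold was found for 7286 of these 11190 genes, 33.9% of all genes tested. Without dark replicate 3 the counts were 5914 higher and 5895 lower, and with only the 6 B73 libraries in the fit they were 4642 and 4362. On values not scaled between libraries, 2152 genes were higher and 1523 lower, 32% of the scaled calls being kept there, all in the same direction. With quantile normalization 5314 genes were higher and 5746 lower, so neither direction held the majority under every scaling.

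Large rises outnumbered large falls. At 2-fold or more, 2140 genes rose (9.97% of those tested) and 1764 fell (8.22%), and with quantile normalization 2004 rose and 1834 fell. These counts depend on the pseudocount: with 5 in place of 1, 1103 rose and 994 fell, and with 0.1, 2898 rose and 2288 fell. At 4-fold or more, 623 rose (2.9%) and 437 fell (2.04%). The ratio of rises to falls was 1.21 at 2-fold, 1.43 at 4-fold, 1.61 at 8-fold and 1.92 at 16-fold, where 77 genes rose and 40 fell. At 32-fold or more, 25 genes rose and 3 fell. Fold changes are on the log2(scaled FPKM + 1) scale, so the changes of low genes come out too small. The middle 50% of all tested genes lay between -0.41 and 0.45 on the log2 scale, and the outer percentiles, 1 and 99, were -2.69 and 3.02.

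**Figure D1:**
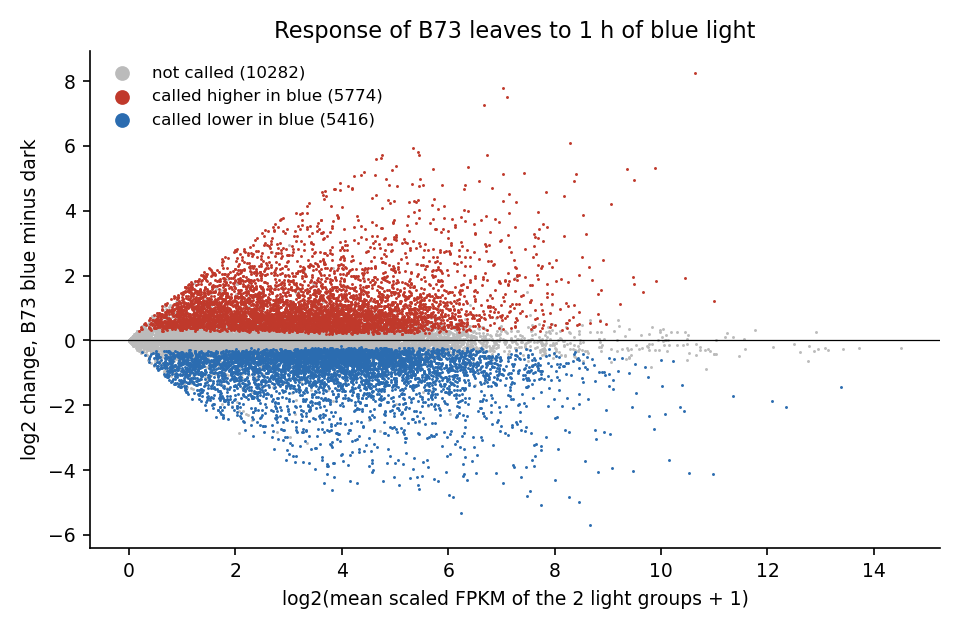
Each point is a tested gene; the horizontal axis is the log2 of its mean scaled FPKM over the B73 blue and dark groups plus 1, and the vertical axis is the log2 change, blue minus dark. The 5774 genes called higher and the 5416 called lower lie on both sides of the uncalled genes at nearly all levels, and the upper side reaches further from 0 than the lower.

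Blue and dark values of genes with large changes seldom overlapped, which follows largely from picking the genes on these same values. All 1060 genes called at 4-fold or more had 3 blue values and 3 dark values that did not overlap, as did 3873 of the 3904 called at 2-fold or more. Over all tested genes 55.2% had groups that did not overlap, 28.6% with blue above dark and 26.6% with blue below it. At the other end, 6528 genes (30.4% of those tested) had a 95% interval of the change that stayed within 1.5-fold in either direction, and 730 of these were still called. Of the 10282 genes not called, 1625 had an interval that reached past 2-fold, so for them a change of that size was not excluded.

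Genes that rose strongly started low, and genes that fell strongly started high. The 77 genes raised 16-fold or more had a median of 78.5 scaled FPKM in blue light and 1.77 in the dark. The 142 raised 8- to 16-fold had medians of 38.4 in blue light and 3.07 in the dark, and the 1517 raised 2- to 4-fold had 11.6 and 4.07. In the other direction, the 40 genes lowered 16-fold or more had a median of 4.22 scaled FPKM in blue light and 127 in the dark. The 96 lowered 8- to 16-fold had 3.04 in blue light and 42.3 in the dark, and the 1327 lowered 2- to 4-fold had 6.8 and 18.5. These medians describe genes picked by their change, and a large fold is measurable in a low gene only when it ends high.

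Grouping all tested genes by their mean level over the 12 libraries gave the same order. Among 1556 genes with a mean under 1 scaled FPKM, 361 rose and 175 fell, and 67.4% of the calls were higher in blue. Genes of this class passed the filter through the libraries where they reached 1 FPKM before scaling. Genes at that level numbered 19975, 17421 and 20205 in the B73 blue libraries and 19003, 18722 and 18690 in the dark ones. The share in this class may therefore be set in part by the filter, and the classes were not repeated without it. Among 10318 genes at 1 to 10, 2962 rose and 1988 fell (59.8% higher). Among 8831 genes at 10 to 100, 2316 rose and 2940 fell (44.1% higher), and among 767 genes at 100 or more, 135 rose and 313 fell (30.1% higher). With classes by the mean of the 6 B73 libraries the shares higher were 59.2%, 57.9%, 46.4% and 37.8%, the same order with a weaker trend. In the classes by 12 libraries, the median change over all genes, called or not, was 0.08, 0.06, -0.07 and -0.29 on the log2 scale from the lowest class to the highest. On values not scaled between libraries, where fewer genes were called, 52.5% of the calls at 10 to 100 and 44.3% of those at 100 or more were higher in blue, so the majority of falls held there in the top class alone. With quantile normalization the shares higher were 59.8%, 50.3%, 45.8% and 39.7% from the lowest class to the highest, so rises and falls were nearly equal in number at 1 to 10.

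**Figure D2:**
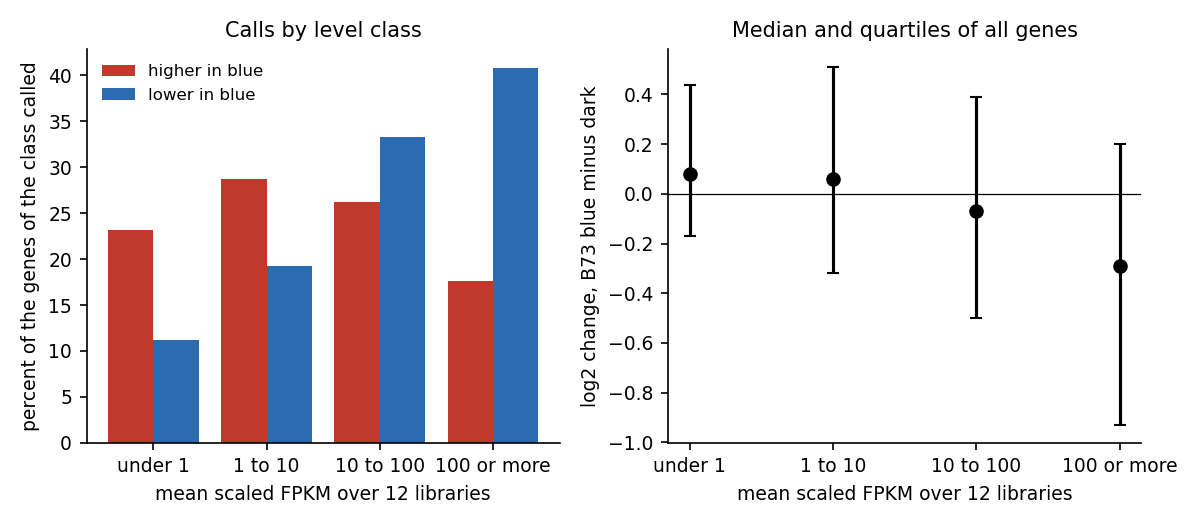
The left panel gives the percent of tested genes of each class that were called higher or lower in B73 blue against dark, by mean scaled FPKM over 12 libraries. The right panel gives the median (points) and quartiles (bars) of the log2 change of all genes of the class, which passes from 0.08 in the lowest class to -0.29 in the highest.

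The abundant genes also changed more. The median size of the change, without its sign, was 0.32 on the log2 scale for genes under 1 scaled FPKM, 0.41 at 1 to 10, 0.45 at 10 to 100 and 0.6 at 100 or more. At 2-fold or more, 32.3% of the genes in the top class were called, against 9.64% in the lowest class. The pseudocount of 1 holds down the change of genes in the lowest class. Dark replicate 3 lay below the other dark libraries in the top class, by a median of 0.12 on the log2 scale, and within 0.04 in the other classes. Its part in the pattern was not tested.

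The raised and the lowered set of 2-fold or more each held 10.6% to 25% of the FPKM total in the light where it was high. In the other light each held 3.46% to 8.15%. FPKM is normalised to transcript length, so these are not shares of RNA mass. The 2140 genes raised 2-fold or more summed to 106941, 109764 and 110161 scaled FPKM in the 3 blue libraries, against 24846, 25129 and 26408 in the 3 dark libraries. As a share of the deposited library total this was 19.2%, 10.6% and 20.6% in blue light and 3.64%, 3.46% and 3.84% in the dark. The lowest blue share belongs to replicate 2, in which the most abundant genes took more of the total. The 1764 genes lowered 2-fold or more summed to 45427, 41466 and 40923 scaled FPKM in blue light and to 170851, 173598 and 141297 in the dark. Their share of the total was 8.15%, 4% and 7.64% in blue light and 25%, 23.9% and 20.5% in the dark. Since these sets were picked from the same libraries, the sums are a description of their size.

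A small number of the called genes held much of the gain and loss of level, the loss more so. Over all called genes the mean level rose by 109687 scaled FPKM in sum and fell by 162034 in sum. The 10 genes of largest gain held 13.2% of all gain and the first 100 held 37.7%. The 10 genes of largest loss held 23.5% of all loss and the first 100 held 47.4%.

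The 2 genes with the largest gain in level were Zm00001eb149430 and Zm00001eb264880. They, and the genes of largest loss below, were taken among called genes whose blue and dark libraries do not overlap. The separation of the B73 groups in these genes was therefore set by the choice. Zm00001eb149430 stood at 3670, 3049 and 2829 scaled FPKM in the 3 B73 blue libraries, against 8.98, 11.2 and 8.48 in the 3 B73 dark libraries. The gene passed from a mean of 0.00137% of the library total in the dark to 0.494% in blue light. It rose by 8.24 ± 0.16 (SE) on the log2 scale (limma adjusted p 5.6e-11), the largest rise of any tested gene.

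Zm00001eb264880 stood at 1827, 2004 and 1737 scaled FPKM in B73 blue and at 32.6, 44.5 and 62.7 in B73 dark. Dark replicate 3 was the highest of the dark libraries. The rise was 5.33 ± 0.19 (SE) on the log2 scale (limma adjusted p 2.1e-09).

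The largest loss in level was that of Zm00001eb355990, with 7080, 5362 and 4008 scaled FPKM in B73 blue, against 18524, 21817 and 7669 in B73 dark. Dark replicate 3 lay close to the highest blue library. The change was -1.45 ± 0.39 (SE) on the log2 scale (limma adjusted p 0.0088). Without dark replicate 3 it was -1.91, and without blue replicate 3 it was -1.23 and no longer passed (limma adjusted p 0.051). It also missed the threshold with quantile normalization (-1.19, limma adjusted p 0.22), with no scaling (-1.44, 0.13) and with only the 6 B73 libraries in the fit (-1.45, 0.061).

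The next largest loss was that of Zm00001eb371660, with 2387, 1709 and 1717 scaled FPKM in B73 blue, against 10523, 10234 and 4712 in B73 dark. Again dark replicate 3 held less than the other dark libraries. The change was -2.06 ± 0.31 (SE) on the log2 scale (limma adjusted p 0.00018), and -2.44 without dark replicate 3. With quantile normalization it was -1.72 (limma adjusted p 0.051).

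**Figure D3:**
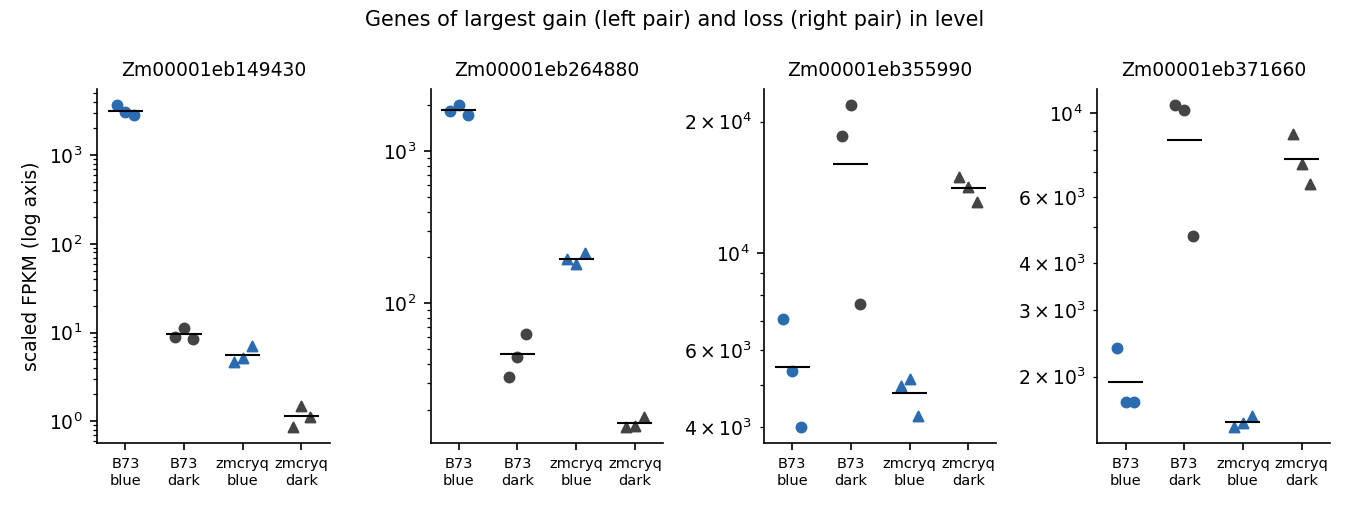
Scaled FPKM of the 2 genes of largest gain and the 2 of largest loss, on log axes that differ between panels; each point is a library, each line the mean of 3, with B73 as circles and zmcryq as triangles. By the choice of genes, blue libraries of B73 lie above the dark ones for Zm00001eb149430 and Zm00001eb264880, and below them for Zm00001eb355990 and Zm00001eb371660. In the latter pair dark replicate 3 sits nearest to the blue libraries.

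A small set of genes was listed in a single light. In B73, 29 genes were at 1 FPKM or more in all 3 blue libraries and listed at 0 in all 3 dark libraries, with a median blue level of 6.06 FPKM and a highest of 66.2. With a minimum of 0.5 FPKM in place of 1 there were 46 such genes, and with a minimum of 5 there were 11. The reverse, listed at 0 in all 3 blue libraries and at 1 or more in all 3 dark ones, held for 8 genes, with a median dark level of 3.8 FPKM, and for 22 and 2 genes with those minimums. These are deposited values, and no fold is given against a group at 0. A listed 0 is not always a low level: 30 times a gene was listed at 0 in 1 B73 library and at 10 FPKM or more in the other 2 of its group. Of the 29 genes, 3 were at 1 FPKM or more in all zmcryq blue libraries and 2 in all zmcryq dark libraries. In zmcryq 1 of them was, as in B73, listed in blue light alone, and 10 were listed at 0 in all 6 libraries.

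Genes with neighbouring IDs tended to change together. IDs of this form are numbered, as background, along the chromosomes, and positions themselves were not used here. Where a gene raised 4-fold or more was followed by a tested gene at the next ID, that gene was also raised 4-fold or more in 45 of 343 cases (13.1%), against 2.9% of all tested genes. For genes lowered 4-fold or more it was 42 of 240 (17.5%), against 2.04% of all tested genes. The shares were 8.49% and 5.7% at 2 places, 3.45% and 1.39% at 5 places, and 2.35% and 1.37% at 10 places. Neighbours with a large change in opposite directions were rare, 4 pairs. Runs of consecutive IDs held 82 of the 623 strongly raised genes, in 37 runs of up to 4 genes, and 79 of the 437 strongly lowered ones, in 37 runs of up to 3.

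Over all 11712 pairs of next IDs, Spearman's rho of the log2 changes was 0.17, and over 10665 pairs that are 10 places apart it was -0.01. In zmcryq the same pairs gave 0.19 and 0.03, so the pattern is not particular to B73. The pairs share libraries, and genes are not independent replicates. Overlapping genes and near-identical copies could share fragments, since the authors' treatment of such fragments is not given in the sources used here, and the part of this in the pattern was not tested.

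**Figure D4:**
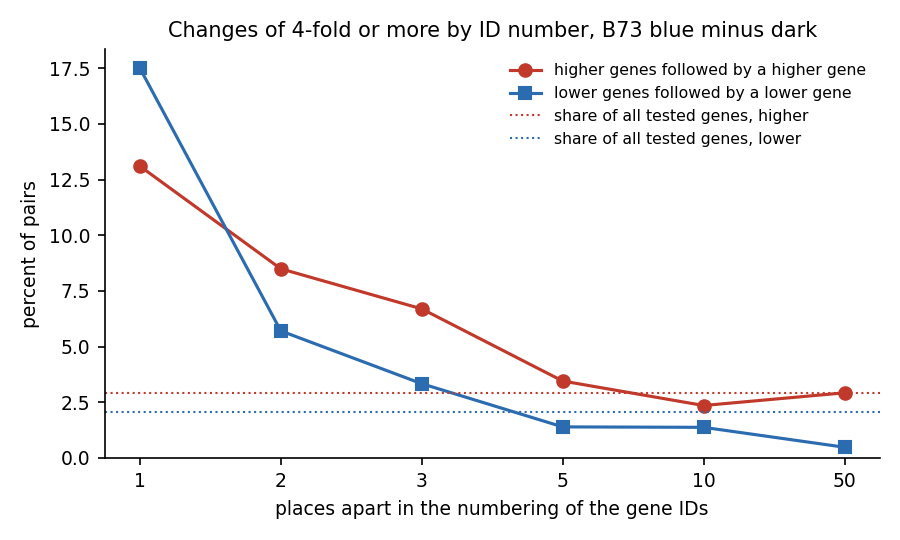
Percent of genes changed 4-fold or more that are followed, at the given number of places in the ID numbering (horizontal axis), by a tested gene with a 4-fold or larger change in the same direction, in B73 blue against dark. Circles are rises and squares are falls; the dotted lines are the shares among all tested genes, 2.9% and 2.04%, close to the rises at 50 places (2.92%) and above the falls from 5 places on.

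The response of zmcryq, measured in 6 other libraries, was set beside that of B73. In zmcryq, 56.2% of the tested genes were called in blue against dark, 6087 higher (28.3%) and 5971 lower (27.8%). On unscaled values 5576 genes were higher and 912 lower in zmcryq, and with quantile normalization 6418 and 5588. The near balance of rises and falls in zmcryq therefore rests on scaling between libraries. Across the 21472 genes, the log2 changes of B73 and zmcryq had a Pearson's r of 0.653, and their SDs over genes were 0.947 in B73 and 0.885 in zmcryq. The difference of the responses was called for 25.8% of the genes, with B73 above zmcryq for 3221 (15%) and below it for 2322 (10.8%). On unscaled values these counts were 412 and 605, and with quantile normalization 2844 and 3206, so the majority changed sides with the scaling.

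After scaling, falls in B73 were largely found again in zmcryq. Among the 437 strong fallers of B73 (4-fold or more), 390 also fell in zmcryq (89.2%), 2 rose and 45 were not called. The median change was -2.65 in B73 and -2.26 in zmcryq on the log2 scale, and the difference was called as a stronger fall in B73 for 152 genes (34.8%). On unscaled values it was 89 genes (20.4%), with medians of -2.66 in B73 and -1.62 in zmcryq. The genes were picked by the B73 change that enters this difference. The reverse choice, after scaling, took genes lowered 4- to 8-fold, 8- to 16-fold and 16-fold or more in zmcryq. A stronger fall in zmcryq was called for 36.6%, 34.2% and 40% of them.

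Among the 623 strong risers of B73 (4-fold or more), 434 also rose in zmcryq (69.7%), 23 fell and 166 were not called. The median change was 2.68 in B73 and 0.93 in zmcryq on the log2 scale, and the difference was called as a stronger rise in B73 for 504 genes (80.9%) and a weaker one for 14. On unscaled values a stronger rise was called for 230 of the 623 (36.9%) and a weaker one for 10, with medians of 2.72 in B73 and 1.42 in zmcryq. With quantile normalization it was 485 (77.8%) and 19. The reverse choice, after scaling, took genes raised 4- to 8-fold, 8- to 16-fold and 16-fold or more in zmcryq. A stronger rise in zmcryq was called for 47.5%, 53.1% and 58.3% of them.

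On scaled values the median rise in zmcryq stayed below 2-fold across classes of larger rise in B73. Without scaling, the zmcryq median of all genes raised 4-fold or more in B73 was 1.42 on the log2 scale, above 2-fold. Medians by class were not taken there. Genes raised 2- to 4-fold, 4- to 8-fold, 8- to 16-fold and 16-fold or more in B73 had median changes of 1.33, 2.32, 3.42 and 4.75 in B73 and of 0.68, 0.94, 0.9 and 0.88 in zmcryq. For falls of the same classes the medians were -1.3, -2.37, -3.48 and -4.3 in B73 and -1.18, -2.04, -2.97 and -3.58 in zmcryq. Genes picked for a large change in 1 genotype tend to show a smaller one in the other, so the reverse choice is given too. Genes raised 2- to 4-fold, 4- to 8-fold, 8- to 16-fold and 16-fold or more in zmcryq had medians of 0.82, 1.46, 2.09 and 3.02 in B73 and of 1.25, 2.3, 3.3 and 4.61 in zmcryq, the last class holding 12 genes. There the B73 median rose with the class, unlike the zmcryq median for raised genes picked in B73. For falls of the same classes picked in zmcryq the medians were -0.93, -1.77, -2.83 and -3.79 in B73. In zmcryq they were -1.31, -2.32, -3.37 and -4.27.

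**Figure D5:**
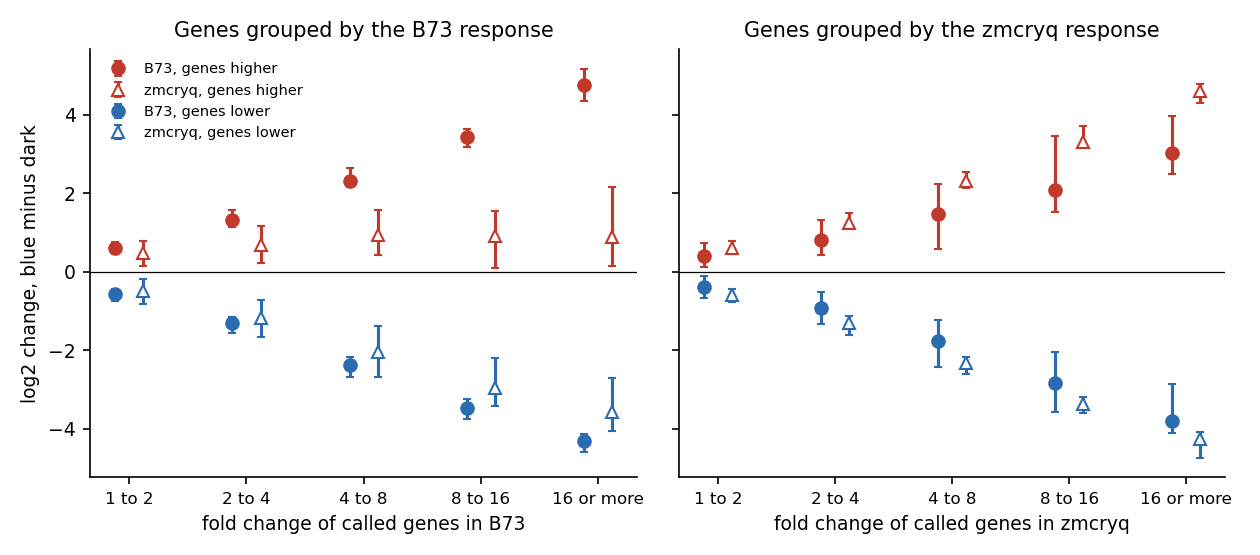
Median (points) and quartiles (bars) of the log2 change, blue minus dark, in B73 (filled circles) and zmcryq (open triangles) for called genes grouped by the size of their change in B73 (left) or in zmcryq (right). Values are scaled. For the classes from 4-fold up among genes that rose in B73, the zmcryq medians stay between 0.88 and 0.94, while for lowered genes they follow the B73 medians. On unscaled values the zmcryq medians of the 4-fold sets were 1.42 for rises (2.72 in B73) and -1.62 for falls (-2.66 in B73).

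The summed levels of the B73 sets were also taken in the zmcryq libraries, whose changes had no part in choosing them. The 2140 genes with a rise of 2-fold or more summed to 39245, 37189 and 41899 scaled FPKM in zmcryq blue and to 17585, 17576 and 18564 in zmcryq dark. The genes were picked for their high values in B73 blue, so these sums are not set against those of B73 blue. The 1764 genes lowered in B73 summed to 49015, 50839 and 47900 scaled FPKM in zmcryq blue and to 177218, 165386 and 161429 in zmcryq dark. These genes were picked for low values in B73 blue and high values in B73 dark, so their sums are not set against those of B73 either. As shares of the library total the sums in zmcryq blue were 8.42%, 6.83% and 9.66%.

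The 2 genes of largest gain differed between the genotypes, although picking them for their gain in B73 favours a larger response there. Zm00001eb149430 stood at 4.6, 5.16 and 6.98 scaled FPKM in zmcryq blue and at 0.867, 1.48 and 1.11 in zmcryq dark. It was called higher in blue in zmcryq too, by 1.61 ± 0.16 (SE) on the log2 scale (limma adjusted p 8.1e-06). The response in B73 exceeded that in zmcryq by 6.63 ± 0.23 (SE) on the log2 scale (limma adjusted p 1.1e-08). The zmcryq dark values lie near the pseudocount of 1, and the difference was 6.18 with a pseudocount of 0.1 and 6.99 with 5. Zm00001eb264880 stood at 195, 181 and 213 in zmcryq blue and at 15.4, 15.6 and 17.8 in zmcryq dark, and its response was higher in B73 by 1.82 ± 0.26 (SE) (limma adjusted p 0.00049). That call was lost with quantile normalization (1.71, limma adjusted p 0.051) and with no scaling (1.14, 0.45).

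For the 2 genes of largest loss no difference between the genotypes was called. Zm00001eb355990 stood at 4958, 5158 and 4241 scaled FPKM in zmcryq blue and at 14944, 14199 and 13112 in zmcryq dark. The difference of the responses, B73 minus zmcryq, was 0.11 on the log2 scale with a 95% interval of -1.11 to 1.33 (limma adjusted p 0.91). Zm00001eb371660 stood at 1473, 1510 and 1576 in zmcryq blue and at 8838, 7349 and 6498 in zmcryq dark, and the difference was 0.24 with an interval of -0.73 to 1.22 (limma adjusted p 0.74). These intervals are wide enough to hold a difference of 2-fold.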

How the data were processed

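The authors deposited 1 table of values per gene and library. Its 4 further columns hold group means and were left out. The deposited values were read as FPKM, although no header or label names the unit: they carry decimals, their totals per library differ (588717 to 814802), and Cufflinks is named in the submitters' processing notes. HISAT2 2.2.1.0, Bowtie2, TopHat and Trimmomatic 0.36 stand there too, without their roles. The genome build, the annotation, strand use and the mapped totals were not given in the sources used here. The depth is therefore unknown. Per the labels' protocols, RNA was isolated with RNAiso Plus and libraries were made with a TruSeq kit.

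A gene was kept if 3 or more libraries reached 1 FPKM. Libraries were divided by median-ratio factors over the 19555 kept genes above 0 in all libraries. limma 3.58.1 (R 4.3.3) was fitted to log2(scaled FPKM + 1) over all 12 libraries, giving each group a mean, with robust and trended moderation, 2-sided tests and Benjamini-Hochberg adjustment over all kept genes at 0.05. All groups share 1 estimate of spread. The fit was tested on simulated data. Since no ID could be named, the genes given by ID are the 2 with the largest gain and the 2 with the largest loss in mean scaled FPKM among called genes whose groups do not overlap. The comparison, gene groups and rules were chosen with earlier results of these data known. Alternatives were other scalings and pseudocounts, no filter, plain moderation, a replicate block, the B73 libraries alone, and leaving out each library. Figures were drawn with matplotlib 3.10.9.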

Additional observations from a re-analysis of the deposited data

Results flagged for a closer look

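The response to blue light differed between B73 and zmcryq by the test of the difference itself: it was higher in B73 for 3221 genes and lower for 2322 (limma, adjusted p under 0.05), on unscaled values for 412 and 605, and with quantile normalization for 2844 and 3206. Of the genes given by ID, Zm00001eb149430 had a log2 response higher in B73 by 6.63 and Zm00001eb264880 by 1.82. Both were picked for their gain in B73, which favours a larger response there. The call for Zm00001eb264880 was lost with no scaling and with quantile normalization. Groups of 3 libraries are too small to single out an outlying sample by a gap test.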

How the results depend on the processing

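Leaving out each of the 12 libraries in turn kept the B73 counts between 5104 and 5914 higher and 4763 and 5895 lower, and at 2-fold between 2020 and 2194 higher and 1734 and 1905 lower. With only the 6 B73 libraries in the fit, 4642 genes were higher and 4362 lower, and 79.7% of the 11190 calls were kept. Without both blue replicate 2 and dark replicate 3 of B73, a repeat chosen after seeing the data, 5492 genes were higher and 5404 lower. With no scaling 2152 genes were higher and 1523 lower in B73, and 5576 higher and 912 lower in zmcryq. The difference of the responses was then called for 412 higher and 605 lower. Among the genes changed 4-fold or more in B73, repeats chosen after seeing the data called a stronger rise in B73 for 230 unscaled, a stronger fall for 89 and a weaker fall for 0 (29 after scaling). The residual SD without scaling was 0.494, against 0.18 after it. With a pseudocount of 5, the 2-fold counts in B73 were 1103 higher and 994 lower, as that pseudocount shrinks the changes of low genes. By level class, the unscaled share of calls higher in blue was 52.5% at 10 to 100 and 44.3% at 100 or more; these repeats, and those with quantile normalization or other pseudocounts, which kept the side of 50% in all 4 classes, were also chosen after seeing the data. Genes listed in blue light alone numbered 46 with a minimum of 0.5 FPKM and 11 with a minimum of 5, and those in the dark alone 22 and 2. The titles share replicate numbers, and same-numbered B73 blue and dark libraries had deviations correlated at 0.26, -0.05 and 0.25 for replicates 1, 2 and 3. The highest correlation with a library of another number was -0.12, 0.29 and 0.11. Replicates 1 and 3 were thus closer to their own number and replicate 2 was not, which does not settle pairing. The labels name no pairs, so the numbers are not taken as pairs in the main fit. With the replicate block 5748 genes were higher and 5355 lower in B73, and 10862 of these 11103 were among the 11190 called without it; no call on a gene given by ID changed. Depth is unknown, so counting error could not be separated from the spread between libraries.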
